A study of Mus musculus with 8 samples.

Results

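The genes described here mark the blood vessels of the brain. They are 38 of the 22609 gene rows measured, taken by symbol: 28 that mark endothelial cells, 7 that mark pericytes and 3 that mark vascular smooth muscle. All 38 were found in the table, and all 38 passed the filter of a mean value of at least 1. Every one was above 0 in every library, from 2 to 935 recovered reads, so reads of all 38 genes were detected in the dissected cortex.

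The tissue was the medial prefrontal cortex (anterior cingulate area, both hemispheres) of B6.SJL mice aged 3 months, taken 1 h after training. In the contextual fear conditioning group, mice explored a chamber for 3 min, then received 2 foot shocks (0.8 mA, 2 s each, 30 s apart) and were left there 15 s more. Context control mice were handled in the same way without shocks. Each group has 4 samples, which the submitters call biological replicates, and the labels do not say whether a sample is 1 animal or a pool. Samples are called controls 1 to 4 and conditioned samples 1 to 4 below, by their replicate numbers.

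Brain capillaries are built from endothelial cells joined by tight junctions, wrapped by pericytes and by the endfeet of astrocytes. Together these form the blood-brain barrier, in which endothelial transporters carry glucose, amino acids and hormones into the tissue and efflux pumps return foreign compounds to the blood. Arterioles add a coat of contractile smooth muscle, which sets blood flow. Endothelial cells are kept quiescent by angiopoietin signals through the receptor Tek and are driven to grow by VEGF through Kdr, and pericytes are held on the vessel by PDGF-B acting on Pdgfrb.

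Each value is the number of reads on a gene multiplied by 1 constant per sample, with no correction for gene length. Libraries held between 1992452 and 3565356 recovered reads. Changes are differences of mean log2(value + 1), conditioned minus control, and the test is limma over 14704 genes with Benjamini-Hochberg adjustment. At an adjusted p of 0.05, limma called 0 of the 38 genes, and 0 (0%) of all genes tested; edgeR and DESeq2 on recovered reads also called 0 of the 38 (0% and 0% of all genes). At an unadjusted p under 0.05 there were 3 of 38 by limma (2.7% of all genes), and 2 each by edgeR (2.62%) and DESeq2 (2.31%). In bulk tissue, fewer vessel cells and less RNA per vessel cell cannot be told apart.

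Most of the vessel genes lay slightly lower after conditioning. The log2 change was below 0 for 36 of 38 genes, where 48.2% of all genes tested were below 0. The median change over the 38 was -0.34, against 0.0095 over all genes tested. The 2 genes above 0 were Robo4 and Egfl7. In 0 of 38 genes did the groups separate completely, where 1.92% of all genes did. Intervals were wide: the 95% confidence interval of a change reached 0.381 to 1.58 to either side, with a median of 0.703, and it excluded 0 for Tek, Pecam1 and Anpep. The median was -0.22 without conditioned sample 3, with 33 to 36 of 38 below 0 whichever sample was left out. The 38 genes were read in the same samples, so these counts are a description and not 38 separate observations.

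**Figure D1:**
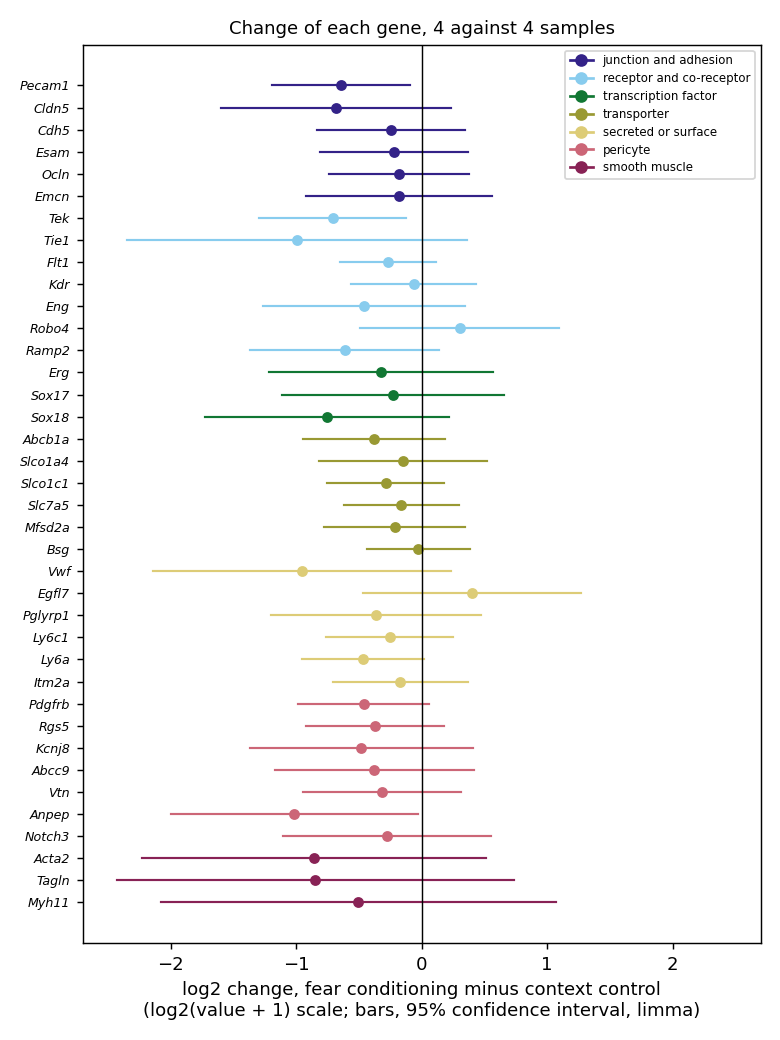
Change of each of the 38 genes on the log2(value + 1) scale (x axis), conditioned minus control, with 95% confidence intervals from limma; colours give the role of the gene. The points of 36 genes lie left of 0, and the intervals of Tek, Pecam1 and Anpep do not reach 0.

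Receptor genes were below 0 in 6 of 7, with a median change of -0.46, and include the member with the smallest p. Tek, the angiopoietin receptor, read 125, 98.0, 182 and 142 in controls 1 to 4 and 59.4, 78.3, 72.4 and 129.5 in conditioned samples 1 to 4. Conditioned samples 1, 2 and 3 lay below every control, while conditioned sample 4 lay within the controls. The log2 change of Tek was -0.71 (95% confidence interval -1.29 to -0.12), with an unadjusted p of 0.0216 and an adjusted p of 0.9998 in limma; every other member had the same adjusted p. Ramp2, a partner of the adrenomedullin receptor, read 75.6, 41.6, 59.5 and 38.6 in controls 1 to 4 and 30.4, 57.0, 20.5 and 35.5 in conditioned samples 1 to 4. Conditioned samples 1, 3 and 4 were below every control and sample 2 was not, and the change was -0.61 (-1.37 to 0.14).

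Tie1, an orphan partner of Tek, was 29.7 ± 12 in controls and 18.2 ± 14.4 after conditioning (SD, n = 4), with its lowest value, 2.73 or 2 recovered reads, in conditioned sample 3. The change of Tie1 was -0.99, and -0.34 without that sample. The VEGF receptor genes varied little: Flt1, a receptor that also acts as a decoy for VEGF, was 335 ± 51.0 in controls and 279 ± 54.9 after conditioning (SD, n = 4), and Kdr, the main signalling receptor, 82.6 ± 14.9 and 78.8 ± 13.7. Their changes of -0.27 and -0.064 had intervals of -0.65 to 0.11 and -0.56 to 0.43. Eng, the TGF-beta co-receptor endoglin, was 91.5 ± 26.1 in controls and 72.3 ± 38.9 after conditioning (SD, n = 4), and only its conditioned samples 3 and 4 (41.0 and 37.4) were below every control. The change of Eng was -0.46, and -0.25 and -0.20 without conditioned sample 3 or 4. Robo4, a receptor that steadies the endothelium, went the other way in value, at 21.0 ± 6.89 and 26.4 ± 8.66 in the same order, a change of 0.30 (-0.49 to 1.1).

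The promoters of Tek, Tie1, Flt1 and Eng hold the GGAA core recognised by ETS transcription factors such as Erg. They are shown as examples from the receptor group, since Erg is itself a member. The 4 genes did not share 1 pattern over samples: conditioned sample 4 was the lowest library for Eng but lay within the controls for Tek and above 3 of 4 controls for Flt1, and conditioned sample 2 was below every control for Tek and Flt1 but above 3 of 4 controls for Tie1 and Eng. The 150 bases before each start site are printed 5′ to 3′ on the strand of the gene, from RefSeq on GRCm38.p6, with GGAA or its reverse complement TTCC in capitals. The positions are chr4:94739139-94739288, plus strand for Tek; chr4:118489850-118489999, minus strand for Tie1; chr5:147726012-147726161, minus strand for Flt1; and chr2:32646445-32646594, plus strand for Eng.
Tek: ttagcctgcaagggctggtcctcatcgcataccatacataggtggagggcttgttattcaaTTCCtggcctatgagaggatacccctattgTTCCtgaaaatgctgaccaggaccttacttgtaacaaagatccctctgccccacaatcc
Tie1: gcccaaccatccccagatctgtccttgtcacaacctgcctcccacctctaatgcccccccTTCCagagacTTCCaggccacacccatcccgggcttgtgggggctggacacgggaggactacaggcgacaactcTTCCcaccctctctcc
Flt1: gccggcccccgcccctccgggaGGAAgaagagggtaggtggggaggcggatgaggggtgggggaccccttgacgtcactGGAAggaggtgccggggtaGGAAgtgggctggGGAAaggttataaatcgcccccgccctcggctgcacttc
Eng: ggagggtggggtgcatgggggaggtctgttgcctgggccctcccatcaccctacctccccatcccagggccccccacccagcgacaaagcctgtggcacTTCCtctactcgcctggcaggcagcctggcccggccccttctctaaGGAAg
These stretches hold 2, 3, 4 and 2 matches. The longer form GGAAGT, which contains the core, lay at -82 to -77 in Tie1 (as its reverse complement), -52 to -47 in Flt1 and -53 to -48 in Eng (as its reverse complement), counted back from the start site. Both motifs are common: on either strand of the 300-base window, from 250 before to 50 after the start, GGAA was in 23 of the 25 member promoters that the table holds and in 95.9% of 27025 promoters, 1 per gene. GGAAGT was in 7 of 25 (28%) and in 24.1% of all. ACAAT and ACAAAG, forms bound by SOX factors, were in 6 and 5 of the 25 on either strand (31.6% and 18.7% of all promoters), and TATAAA on the strand of the gene in 4 (8.88%). The CArG box, a serum response factor motif of muscle genes, was searched only in its strict form: CC, 6 bases of A or T, then GG. That form was in 0 of 25 (1.57% of all), and forms with another base were not searched. Acta2 is the only smooth muscle gene among the 25. These matches describe the letters only.

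Junction and adhesion genes lay lower in 6 of 6, with a median change of -0.23. Pecam1, the adhesion molecule between neighbouring endothelial cells, read 169, 153, 182 and 169 in controls 1 to 4 and 91.1, 160.5, 67.0 and 133 in conditioned samples 1 to 4. Only conditioned sample 2 reached the range of the controls. The change was -0.64 (-1.19 to -0.10), with an unadjusted p of 0.025 in limma. Cldn5, the main claudin of the barrier's tight junctions, read 65.6, 83.3, 52.4 and 62.8 in controls 1 to 4 and 67.7, 79.6, 26.0 and 18.2 in conditioned samples 1 to 4. Conditioned samples 1 and 2 lay inside the control range and samples 3 and 4 were below every control, giving a change of -0.68 (-1.60 to 0.23), or -0.32 without conditioned sample 4.

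The other 4 junction genes differed by less than the spread between replicates. Cdh5, the cadherin of endothelial adherens junctions, was 80.6 ± 20.6 in controls and 68.6 ± 20.6 after conditioning (SD, n = 4). Esam, an endothelial adhesion molecule, was 57.3 ± 11.2 and 49.7 ± 13.4 in the same order. Ocln, the tight junction protein occludin, was 65.6 ± 13.5 and 58.0 ± 13.4, and Emcn, a sialomucin of the endothelial surface, 34.0 ± 12.8 and 29.1 ± 7.45. Their changes lay between -0.24 and -0.18.

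The endothelial transcription factor genes were below 0 in 3 of 3, with a median change of -0.32. Sox18, which takes part in vessel and lymphatic development, read 19.1, 26.9, 11.1 and 16.1 in controls 1 to 4 and 18, 13.3, 6.83 and 5.76 in conditioned samples 1 to 4. Conditioned samples 3 and 4 were below every control, and the change was -0.75 (-1.72 to 0.21). Erg, an ETS factor that maintains endothelial identity, read 13.3, 17.5, 19.2 and 11.3 in controls 1 to 4 and 19.3, 9.29, 6.83 and 15.4 in conditioned samples 1 to 4. Its highest and lowest libraries were both conditioned samples (1 and 3), and the change was -0.32 (-1.21 to 0.57). Sox17, a factor of arterial endothelium, was 12.9 ± 4.69 in controls and 10.5 ± 2.80 after conditioning (SD, n = 4), a change of -0.23. Recovered reads per library ran from only 5 to 23 for Sox18, 5 to 19 for Erg and 6 to 19 for Sox17. The order of libraries is therefore uncertain in all 3 genes.

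Transporter genes had the median change nearest 0 of the endothelial groups, at -0.19 and 6 of 6 below 0. Abcb1a, the efflux pump P-glycoprotein, read 148, 139.7, 262 and 187 in controls 1 to 4 and 104, 129, 122 and 216 in conditioned samples 1 to 4. Conditioned samples 1 to 3 lay below every control, but conditioned sample 4 was exceeded only by control 3, and the change was -0.38 (-0.95 to 0.19). Slco1c1, a carrier of thyroid hormone, read 498, 348, 648 and 521 in controls 1 to 4 and 391, 332, 361 and 564 in conditioned samples 1 to 4. Only conditioned sample 2 was below every control, and the change was -0.29 (-0.75 to 0.18).

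Slco1a4, an organic anion carrier, was 258 ± 60.9 in controls and 251 ± 133 after conditioning (SD, n = 4), with its lowest and highest values of all 8 libraries in conditioned samples 1 (133) and 4 (440.4). Slc7a5, the large neutral amino acid transporter, was 352 ± 71.3 and 318 ± 81.8 in controls and conditioned samples. Mfsd2a, a lipid carrier needed for a tight barrier, was 95.3 ± 19.5 and 83.3 ± 22.9 in the same order. Bsg, the chaperone of lactate transporters also known as basigin, was nearly level at 854 ± 138 and 848 ± 188, a change of -0.026 (-0.44 to 0.38).

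Secreted and surface products of the endothelium were below 0 in 5 of 6, with a median change of -0.31. Ly6a, a GPI-anchored surface protein, read 122, 125, 157 and 127 in controls 1 to 4 and 81.5, 109, 71.1 and 131 in conditioned samples 1 to 4. Conditioned samples 1 to 3 lay below every control and sample 4 within them, with a change of -0.47 (-0.95 to 0.022). Vwf, the clotting protein von Willebrand factor, read 63.1, 57.7, 104 and 69.2 in controls 1 to 4 and 70.4, 102, 13.7 and 17.3 in conditioned samples 1 to 4. Its conditioned samples split, with 1 and 2 in the range of the controls and 3 and 4 far below it, and the change of -0.95 had an interval of -2.14 to 0.24. Egfl7, a secreted matrix protein of vessels, was 43.7 ± 16.1 in controls and 61.2 ± 33.6 after conditioning (SD, n = 4), a change of 0.40 (-0.47 to 1.27), with its highest value, 107, in conditioned sample 2.

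Pglyrp1, a peptidoglycan recognition protein, was 19.7 ± 6.70 in controls and 14.8 ± 4.06 after conditioning (SD, n = 4). Ly6c1, a surface protein related to Ly6a, was 102 ± 16.4 and 86.3 ± 19.4 in the same order, and Itm2a, a membrane protein of brain endothelium, 323 ± 93.2 and 286 ± 81.9. Their changes were -0.36, -0.25 and -0.17. The Ly6 genes form a family of similar copies, Abcb1a has the near copy Abcb1b, and the handling of reads shared between copies is not stated, so the values of Ly6a, Ly6c1 and Abcb1a are uncertain. The exons of Egfl7, Eng, Ramp2 and Tagln overlap those of other protein-coding genes, among them Agpat2, Fpgs, Vps25 and Pcsk7 in that order (GENCODE vM21). Agpat2, Fpgs and Pcsk7 lie on the opposite strand, and whether the counting used strand is not stated either. Vps25, and Gm20532 over Egfl7, lie on the same strand as the member, where counting by strand would not separate the reads.

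Pericyte genes lay lower in 7 of 7, with a median change of -0.38. Anpep, the surface peptidase CD13, read 20.8, 17.5, 36.3 and 27.4 in controls 1 to 4 and 8.29, 21.2, 5.47 and 18.2 in conditioned samples 1 to 4. Conditioned samples 1 and 3 were below every control and samples 2 and 4 were not. The change was -1.01 (-2.0 to -0.028), with an unadjusted p of 0.0447 in limma, 0.0573 in edgeR and 0.0622 in DESeq2. Recovered reads of Anpep ran from only 4 to 36 per library. Pdgfrb, the receptor that keeps pericytes on the vessel, read 135, 113, 97.8 and 85.3 in controls 1 to 4 and 92.5, 95.5, 71.1 and 55.6 in conditioned samples 1 to 4. Conditioned samples 3 and 4 were below every control, samples 1 and 2 were above control 4 alone, and the change was -0.46 (-0.98 to 0.059).

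Rgs5, a regulator of G protein signalling, was 217 ± 60.6 in controls and 171 ± 64.4 after conditioning (SD, n = 4), with 308 in control 3 and 267 in conditioned sample 4. Kcnj8 and Abcc9 encode the pore and the regulatory subunit of the vascular ATP-sensitive potassium channel. Kcnj8 was 17.1 ± 5.75 in controls and 12 ± 4.27 after conditioning (SD, n = 4), and Abcc9 64.8 ± 14.3 and 53.9 ± 25.5 in the same order. Their changes were of similar size (-0.48 and -0.38). Kcnj8 was highest in control 4 and lowest in conditioned sample 3, and Abcc9 highest in conditioned sample 4 and lowest in sample 2. Kcnj8 had only 5 to 20 recovered reads per library, so its order of libraries is uncertain, and Abcc9 had 17 to 88. Vtn, the adhesive protein vitronectin, was 239 ± 44.3 and 206 ± 102, and Notch3, the Notch receptor of mural cells, 36.7 ± 10.4 and 32.1 ± 15.5, with changes of -0.32 and -0.28.

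**Figure D2:**
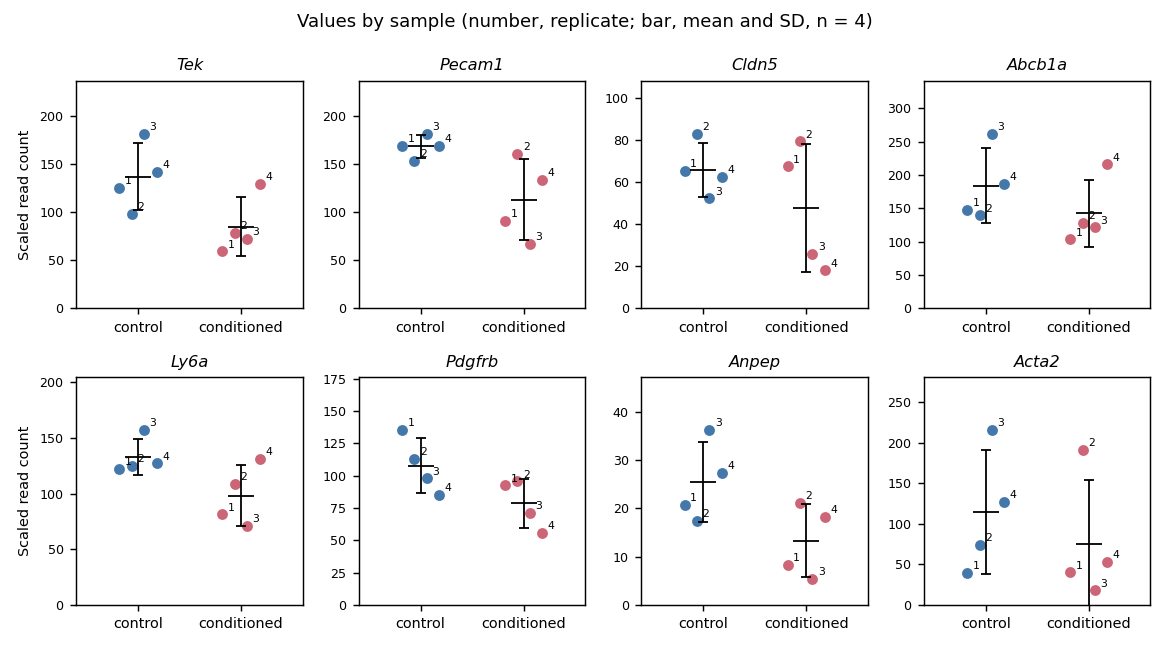
Scaled read counts (y axis, from 0) of 8 vessel genes in each sample; numbers are replicate numbers and bars are the mean and SD of 4 samples. The groups overlap in each panel, through conditioned sample 4 for Tek, Abcb1a and Ly6a and through conditioned sample 2 for Pecam1; the lower error bar of Acta2 after conditioning is cut at 0.

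The smooth muscle genes were below 0 in 3 of 3, with a median change of -0.85, but they varied widely between samples and the groups overlapped. Acta2, smooth muscle actin, read 39.9, 73.9, 216 and 127 in controls 1 to 4 and 40.0, 191, 17.8 and 52.8 in conditioned samples 1 to 4. Tagln, the actin-binding protein transgelin, read 16.6, 45.7, 116 and 69.2 in controls 1 to 4 and 15.2, 121, 8.20 and 34.5 in conditioned samples 1 to 4. Myh11, the smooth muscle myosin heavy chain, read 14.1, 37.6, 135 and 56.3 in controls 1 to 4 and 15.2, 102, 10.9 and 55.6 in conditioned samples 1 to 4. In all 3 genes the lowest library was conditioned sample 3, the next were control 1 and conditioned sample 1, and the top pair were control 3 and conditioned sample 2. The highest library was 12.1, 14.7 and 12.4 times the lowest. Among the other members this ratio ran from 1.59 for Kdr to 14.9 for Tie1, with 7.60 for Vwf and 6.64 for Anpep. The changes of -0.85, -0.85 and -0.50 had intervals of -2.23 to 0.52, -2.43 to 0.74 and -2.08 to 1.07.

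**Figure D3:**
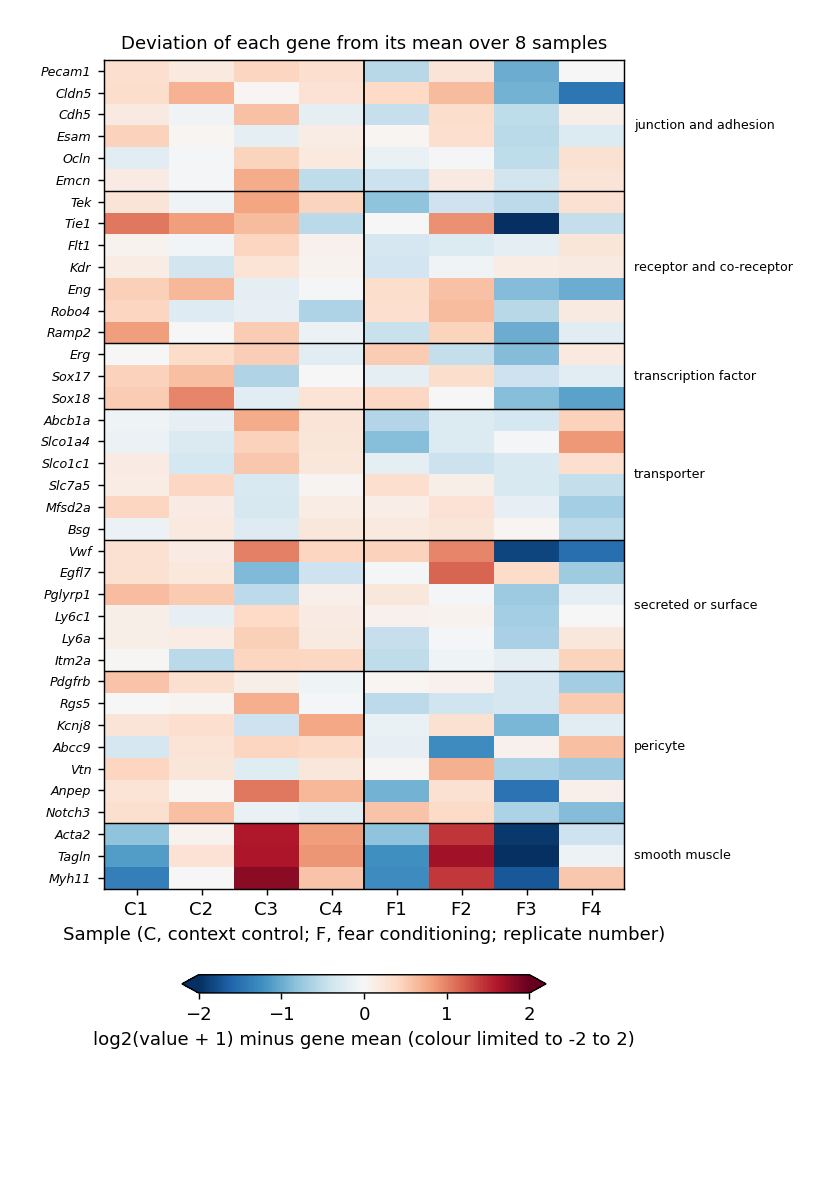
Deviation of each gene's log2(value + 1) from its own mean over the 8 samples (colour), by role group (rows) and sample (columns; C, context control, and F, fear conditioning). Conditioned sample 3 (F3) is blue for most endothelial and pericyte genes, and the 3 smooth muscle genes are red in C3, C4 and F2 and blue in C1, F1 and F3.

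Levels can be set beside each other only per length. Divided by the length of the longest GENCODE vM21 transcript, the control means were highest for Bsg at 559.6 per kb, which other brain cells also express. Next came Itm2a at 185, Slco1c1 at 159, Ly6a at 139, Vtn at 137 and Ly6c1 at 121 per kb. The junction genes Pecam1 and Cldn5 stood at 48.8 and 46.6 per kb, Rgs5 at 53.0 and Pdgfrb at 19.9. The lowest were Sox17 at 3.98, Robo4 at 4.25, Notch3 at 4.58 and Erg at 4.71 per kb. The transcript that was counted is not known, so this order is approximate.

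The lower values were not spread evenly over samples. Of the 38 genes, 29 had their highest value in a control (40.6% of all genes) and 33 their lowest in a conditioned sample (56.3% of all genes). Control 3 was the highest library for 16 of 38, where it was the highest for 15% of all genes tested. Conditioned samples 3 and 4 held the lowest value of 25 of 38, where they held it for 30.1% of all genes. Taking for each sample the median over the 38 genes of the deviation from the gene's mean, the values were 0.22, 0.16, 0.44 and 0.17 (log2) in controls 1 to 4 and -0.15, 0.25, -0.55 and -0.052 in conditioned samples 1 to 4. Conditioned sample 2 was thus above 3 of the 4 controls.

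The change also differed in size between replicate numbers, a division of the samples chosen with earlier results of these data known. In replicates 1 and 2 the log2 change was below 0 for 27 of 38 genes (46.9% of all genes), with a median of -0.14. In replicates 3 and 4 it was below 0 for 35 of 38 (51.8%), with a median of -0.46. There were 26 of 38 genes below 0 in both sets (23.4% of all genes) and 2, Robo4 and Egfl7, above 0 in both (24.6%). Tek had changes of -0.69 and -0.72 in the 2 sets, Pdgfrb of -0.39 and -0.53, and Ly6a of -0.39 and -0.54. For Cldn5 the changes were -0.010 and -1.36, for Vwf 0.48 and -2.39, and for Acta2 0.68 and -2.39. With 2 samples a side, the groups separated for 10 of 38 genes in replicates 1 and 2 (39.7% of all genes) and for 16 of 38 in replicates 3 and 4 (34%). Without conditioned sample 4 they separated for 5 of 38 (5.97%), which were Abcb1a, Flt1, Ly6a, Rgs5 and Tek. The difference between the sets was not tested.

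**Figure D4:**
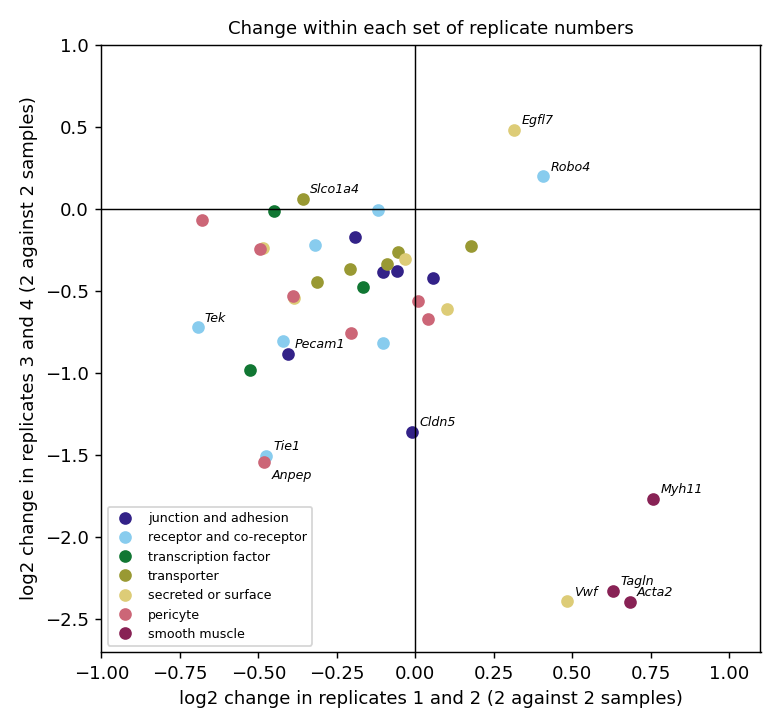
Log2 change of each of the 38 genes in replicates 1 and 2 (x axis) and in replicates 3 and 4 (y axis), each from 2 against 2 samples; colours give the role. Tek lies near equal values on both axes, and Acta2, Tagln, Myh11 and Vwf lie above 0 on the x axis and at -1.76 or lower on the y axis.

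Base composition moved with the libraries. The GC content of the longest transcript ranged from 40.3% (Slco1a4) to 60.9% (Sox18) over the 38 genes. Across these genes, Pearson's r between GC content and the deviation from the gene's mean was 0.352, 0.683, -0.386 and -0.119 in controls 1 to 4, and 0.522, 0.5, -0.308 and -0.813 in conditioned samples 1 to 4. The points within a library share that library, so r is given as a description. Over 14529 genes with a GC value the signs were the same, with r of -0.607 in conditioned sample 4. The 9 genes lowest in conditioned sample 4 were Cldn5, Eng, Sox18, Slc7a5, Mfsd2a, Bsg, Pdgfrb, Vtn and Notch3, and each had a GC content of at least 54.2%. The low-GC genes Slco1a4, Itm2a and Abcc9 were highest there.

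With a correction for GC content, added after the values had been seen, the median change was -0.37 and 36 of 38 genes were below 0 (53% of all genes). It called 0 genes, with the smallest adjusted p of a member at 0.918 in limma. The number at an unadjusted p under 0.05 went from 3 to 11 of 38 (5.35% of all genes), and the groups separated completely for 5 of 38 (3.26% of all genes). These 5 were Cldn5, Sox18, Eng, Pdgfrb and Ly6a, with corrected changes of -0.72, -0.79, -0.50, -0.49 and -0.49. Tek again had the smallest unadjusted p in limma (0.00369, change -0.73).

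**Figure D5:**
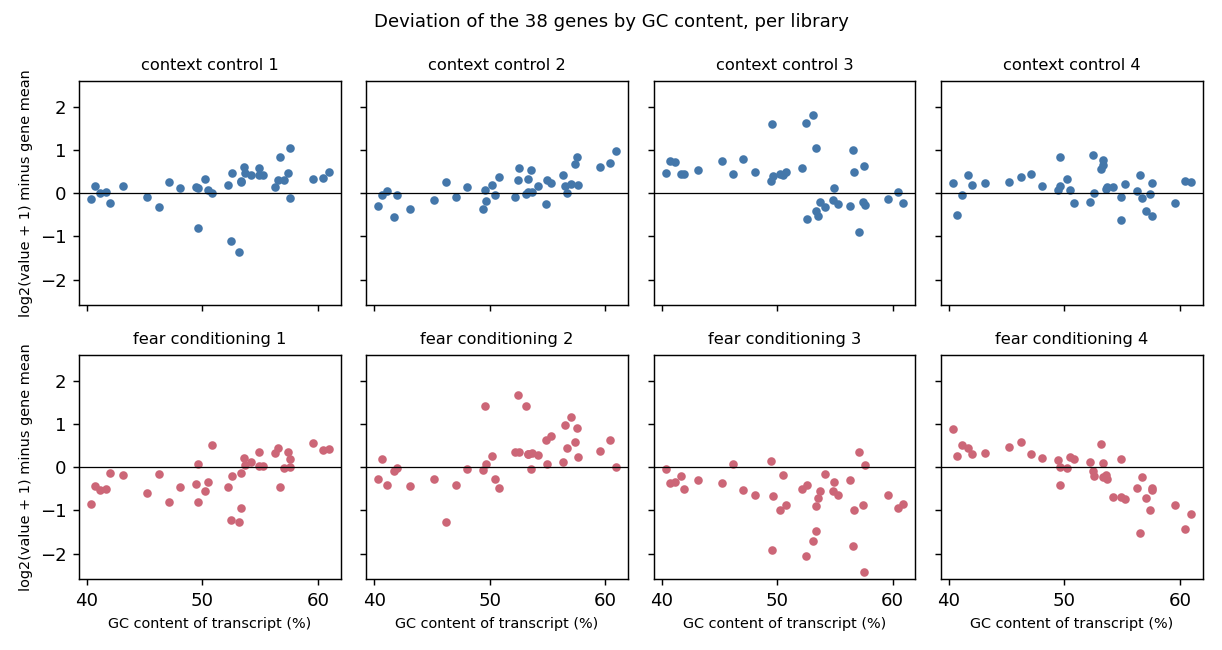
Deviation of log2(value + 1) from each gene's mean (y axis) against the GC content of its longest transcript in percent (x axis) for the 38 genes, 1 panel per library. The points slope upward in replicates 1 and 2 of both groups and downward most steeply in fear conditioning 4.

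Genes that act around these members were taken as 8 lists of 108 genes, all tested. Of these, 84 were below 0 and 24 above, with a median change of -0.24; 4 had an unadjusted p under 0.05 in limma, a share near the 2.7% of all genes, and 0 passed the adjusted threshold. The genes named from these lists, here and in the next paragraph, were picked for a small limma p. They are therefore not typical of their list, which the median describes better. Angiogenic ligands and other receptors were below 0 in 12 of 16 (median -0.25). Among them, Pgf, placental growth factor, was 8.20 ± 6.44 in controls and 17.4 ± 5.66 after conditioning (SD, n = 4; change 1.19), and S1pr1, a sphingosine phosphate receptor, 1056 ± 101 and 903 ± 78.7 (change -0.23). Wnt and barrier-inducing genes were below 0 in 9 of 13 (median -0.10). Gpr124, a co-activator of Wnt7 signalling in brain endothelium, was 46.5 ± 6.28 and 30.9 ± 8.36 (change -0.60, 95% confidence interval -1.22 to 0.014). The forkhead gene Foxf2 was 19.7 ± 1.95 and 15.8 ± 6.70 (change -0.38, interval -1.17 to 0.41). Notch pathway genes were below 0 in 8 of 10 (median -0.17), with the target gene Hes1 at 39.6 ± 5.92 and 28.7 ± 3.09 and the ligand gene Jag1 at 28.3 ± 11.5 and 18.6 ± 8.16.

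TGF-beta and BMP pathway genes were below 0 in 10 of 11 (median -0.36). The receptor gene Tgfbr2 was 116 ± 18.4 in controls and 78.2 ± 17.7 after conditioning (SD, n = 4), a change of -0.58. The target gene Id3 was 42.3 ± 9.70 and 32.4 ± 36.2 in the same order, a change of -1.01. The SD of Id3 after conditioning exceeded its mean, so its change is uncertain. Other barrier and endothelial genes were below 0 in 20 of 25 (median -0.17), with the ETS factor gene Ets1 at 107 ± 17.2 and 83.3 ± 8.02 and the nitric oxide synthase gene Nos3 at 20.5 ± 7.29 and 13.2 ± 9.75. Basement membrane genes were below 0 in 11 of 13 (median -0.46), with the nidogen gene Nid1 at 72.0 ± 17.6 and 42.5 ± 21.1 and the laminin gene Lama2 at 83.4 ± 20.3 and 59.4 ± 22.7.

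Markers of neighbouring cell types also lay mostly below 0, except those of neurons, and 0 of them passed in limma. Meningeal fibroblast markers were below 0 in 12 of 12 (median -0.53), and their summed value was 576 to 1432 in controls and 291 to 956 after conditioning. Their sample medians were -0.064, -0.35, 1.18, 0.44, -0.19, 0.33, -1.38 and 0.41, in the order controls 1 to 4 and conditioned samples 1 to 4. Those of the smooth muscle genes were -1.11, 0.068, 1.62, 0.84, -1.23, 1.43, -1.93 and -0.10, so both lists had control 3 at the top and conditioned sample 3 at the bottom. Perivascular macrophage markers were below 0 in 6 of 7 (median -0.94), with sums of 113 to 187 in controls and 43.7 to 184 after conditioning; Lyve1, Cbr2 and Pf4 were at 0 in 2, 2 and 1 of 8 libraries.

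Astrocyte markers were below 0 in 12 of 12 (median -0.32) with sums of 16996 to 23442 in controls and 17129 to 18918 after conditioning. Microglial markers were below 0 in 11 of 13 (median -0.27) with sums of 2068 to 2539 in controls and 1879 to 2173 after conditioning. Oligodendrocyte markers were below 0 in 10 of 10 (median -0.49) with sums of 2657 to 10748 in controls and 2876 to 4800.3 after conditioning; the highest was control 3. Neuronal markers were below 0 in 2 of 12 (median 0.060) with sums of 19141 to 24219.6 in controls and 19183 to 24881 after conditioning. Choroid plexus markers summed to 29.1 to 84.7 in controls and 19.3 to 60.4 after conditioning, with Folr1 and Otx2 at 0 in 7 of 8 libraries and all 5 tested of 8 below 0. Of the red blood cell markers 7 of 9 symbols matched, which summed to 8.06 to 49.4 in controls and 6.72 to 18.6 after conditioning; Hba-a1 and Hba-a2 were listed at 0 in all 8 libraries. The part of these cell types in the change of the vessel genes was not tested.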

How the data were processed

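Total RNA was extracted with a column kit, per the labels' protocols. The submitters' processing notes name TopHat, HTSeq and hg19 (a human build) without versions. No annotation or library type is named. The deposited values are a scaled count signal: in every column, 100% of values above 0 are whole multiples, within 0.01, of a single step, although the table is named FPKM. No coordinates from the table were used. All 8 columns were used; 25 symbols had become calendar dates.

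Values were tested as log2(value + 1) for 14704 genes with a mean of at least 1, in limma 3.58.1 under R 4.3.3 (eBayes with a variance trend, two-sided, Benjamini-Hochberg, threshold 0.05). Counts recovered by dividing the deposited values by the step were tested with edgeR 4.0.16 and DESeq2 1.42.0. The script was tested on simulated data. The members, lists and tests were chosen with earlier results of these data known. The 38 members are all named. Values in every sample are given for Cldn5, Pecam1, Tek, Pdgfrb, Acta2, Abcb1a and the 2 genes of smallest limma p per role group. They are also given for Myh11, Efnb2, Gkn3 and Myl9, chosen after their values were seen. From each other list of neighbouring genes, 2 genes are named. In the angiogenic, Wnt, Notch, TGF-beta, other barrier and basement membrane lists, these were picked for a small limma p. Genes of low mean value were passed over.

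Replicates of a group were not copies: chi-square per degree of freedom on recovered reads was 2.5 to 23.6 over 12 pairs. Deviations of same-numbered samples of the groups correlated (Pearson's r over 12043 genes of 0.396, 0.41, 0.158 and 0.2 for numbers 1 to 4), which met the criterion for pairing, each over 0.1. The correlations did not single out each number, however: r was 0.386 and 0.476 across numbers 1 and 2, 0.642 for control 3 with conditioned sample 4 and 0.223 for control 4 with conditioned sample 3, and -0.578 to -0.169 between the sets 1-2 and 3-4. The labels give only the numbers. For GC correction, a lowess fit of deviation against GC content (span 0.3, from genes whose log2 mean exceeded 5) was taken off each library. A GC value was found for 98.8% of tested genes and for all 38 members.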

Additional observations from a re-analysis of the deposited data

Results flagged for a closer look

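Among 76 groups of 4 samples (38 genes in 2 groups), 4 held a sample far from the other 3 by Dixon's test, where chance flags about 1 in 20. Rgs5 had such a sample in both groups: control 3 read 308 against 180.3 to 192 in the other controls, and conditioned sample 4 read 267 against 128 to 148. Ly6a read 157 in control 3 against 122 to 127 in the other controls. Ly6c1 read 57.4 in conditioned sample 3 against 93.1 to 98.0 in the other conditioned samples.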

How the results depend on the processing

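The count of members past the threshold was 0 under every alternative run, and the median change stayed between -0.46 and -0.14. Leaving out 1 sample in turn gave medians of -0.39 to -0.22 and 33 to 36 members below 0. Members at an unadjusted p under 0.05 in limma numbered 0 to 11. The 11 came without conditioned sample 2, where 594 of all 14689 genes tested had such a p. The 0 came without control 3, control 4 or conditioned sample 3, with 267, 400 and 251 such genes over all. Groups separated for 0 to 5 members. Those 5, without conditioned sample 4, were Abcb1a, Flt1, Ly6a, Rgs5 and Tek (5.97% of all genes separated then). The count of all genes past the adjusted threshold was 0 to 1 in these fits and 8 in replicates 1 and 2 only. Members whose groups separated numbered 10 in replicates 1 and 2 only (39.7% of all genes), 16 in replicates 3 and 4 only (34%), where 2 samples face 2, and 5 with GC correction, with or without the replicate block. With the replicate number as a block, limma again called 0 genes and the member median was -0.34; members at an unadjusted p under 0.05 went from 3 to 4, with Pdgfrb added, and such genes over all from 397 to 594. TMM scaling gave a median of -0.35 and quantile normalization -0.33.

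The sign of the change reversed for these genes. In replicates 1 and 2 only, the changes were 0.057 for Ocln, 0.18 for Bsg, 0.48 for Vwf, 0.10 for Ly6c1, 0.040 for Vtn, 0.010 for Notch3, 0.68 for Acta2, 0.63 for Tagln and 0.76 for Myh11. In replicates 3 and 4 only, Slco1a4 was at 0.062. Without control 3, Emcn was at 0.037, Kdr at 0.018 and Myh11 at 0.016. Without conditioned sample 1, Kdr was at 0.054 and Slco1a4 at 0.11. Bsg was at 0.11 with array weights, and at 0.035, 0.046 and 0.15 without control 2, control 4 and conditioned sample 4. The lowest values with 1 sample left out were -0.38 for Emcn, -0.20 for Kdr, -0.12 for Bsg, -1.06 for Myh11 and -0.46 for Slco1a4. The cause of these reversals was not tested.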

Other observations

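Genes that distinguish arteries from veins were below 0 in 4 of 6 (median -0.66), and none passed in limma. Efnb2, the ephrin ligand of arterial endothelium that neurons also express, read 407, 403, 338 and 407 in controls 1 to 4 and 413, 452, 508 and 527 in conditioned samples 1 to 4. Every conditioned sample was above every control, with a change of 0.29 (-0.026 to 0.60). It was the 1 gene of 108 in the lists of neighbouring genes whose groups separated, where 1.92% of all genes did. Gkn3, a marker of brain arteries, read 26.6, 16.1, 26.2 and 17.7 in controls 1 to 4 and 5.52, 34.5, 5.47 and 10.6 in conditioned samples 1 to 4. Conditioned samples 1, 3 and 4 were below every control, and sample 2 was above all of them.

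Other mural genes were below 0 in 10 of 14 (median -0.32), again with 0 past the threshold. Myl9, a myosin light chain of contractile cells, read 61.5, 65.8, 64.5 and 54.7 in controls 1 to 4 and 30.4, 90.2, 10.9 and 26.9 in conditioned samples 1 to 4. The controls lay close together, while conditioned sample 2 stood above all of them and samples 1, 3 and 4 below all of them. Mcam, an adhesion molecule of vessel walls, was 48.6 ± 23.4 in controls and 34.5 ± 9.44 after conditioning (SD, n = 4), with 83.7 in control 3.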
